A study of Monodelphis domestica with 7 samples.

Results

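VWF (ENSMODG00000018048, von Willebrand factor) and ITGA2B (ENSMODG00000011516, integrin alpha IIb, also called CD41) are 2 of the 21314 genes counted in the spinal cord of the gray short-tailed opossum Monodelphis domestica. They are defined by their identifiers. The cords came from pups of both sexes, either left uninjured or cut completely through at the thoracic level T10, and RNA was taken from the segment rostral to that level. The injured groups were cut at postnatal day 7 (P7+24h injured) or day 28 (P28+24h injured) and collected 24 h later, and the controls were uninjured cords of the same age at collection, P8 control and P29 control. The P29 control was a single library, and every other group had 2. The methods of the study describe each library as a pool of 2 individuals, and they also give larger numbers of animals per group than such pools account for. The day 8 controls came from separate litters, whereas the day 29 controls were usually anaesthetised littermates of injured pups. The 2 sequencing runs used cords collected separately. Replicate 1 of each group belongs to run 1 and replicate 2 to run 2. The P29 control belongs to run 1.

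VWF is a large adhesive glycoprotein made by endothelial cells and megakaryocytes. It is stored in the Weibel-Palade bodies of endothelium and the alpha granules of platelets, tethers platelets to exposed collagen where a vessel is torn, and carries coagulation factor VIII in plasma. ITGA2B is the alpha chain of the platelet fibrinogen receptor, which pairs with integrin beta 3 and also binds VWF. It marks megakaryocytes and platelets and is present on early blood progenitors. Platelets have no nucleus and carry RNA from their megakaryocytes, whereas VWF RNA in a tissue also comes from the vessel wall.

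The deposited values are whole-number counts of reads per gene, from 3332232 to 6256074 per library. They are given here as CPM, the count divided by the TMM-adjusted library total and multiplied to a fixed common total, and 3 counts correspond to between 0.448 and 1.06 CPM depending on the library. The 95% intervals beside single libraries are exact Poisson intervals and cover counting error only. The spinal cord markers GFAP, of astrocytes, and OLIG2, of the oligodendrocyte lineage, were detected in every library, and GFAP was between 256 and 994 CPM in the 4 day 8 libraries and between 1453 and 2382 CPM in the 3 day 29 libraries. In bulk RNA, fewer cells of a type and less RNA per cell cannot be told apart. The P29 control has no replicate. The labels and the methods of the study state different RNA integrity limits for the samples, one low and one high, so the RNA quality behind these levels is not known here.

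VWF was lowest in the day 8 cords and highest after injury at P28. The P8 controls held 54 and 51 counts, or 13.3 CPM (10.0 to 17.4) and 8.39 CPM (6.25 to 11.03) in runs 1 and 2. In the P7+24h injured cords it was 43 and 95, or 11.3 CPM (8.16 to 15.2) and 14.2 CPM (11.5 to 17.3). The values of these 4 libraries overlapped, with group means of 10.9 ± 3.51 CPM (SD, n = 2) and 12.7 ± 2.06 CPM (SD, n = 2). The P29 control held 93 counts, or 26.7 CPM (21.5 to 32.7). The P28+24h injured libraries held 136 and 421 counts, or 48.0 CPM (40.2 to 56.7) and 68.2 CPM (61.8 to 75.0), with a mean of 58.1 ± 14.3 CPM (SD, n = 2). All 3 day 29 libraries lay above all 4 day 8 libraries, which 19.9% of the 13534 genes tested also did, and both P28+24h injured libraries lay above the control, as they did for 22.2% of genes. The group means thus ordered the day 8 control, the day 8 injured, the day 29 control and the day 29 injured cords from lowest to highest, and the first 2 of these did not differ beyond their spread.

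**Figure D1:**
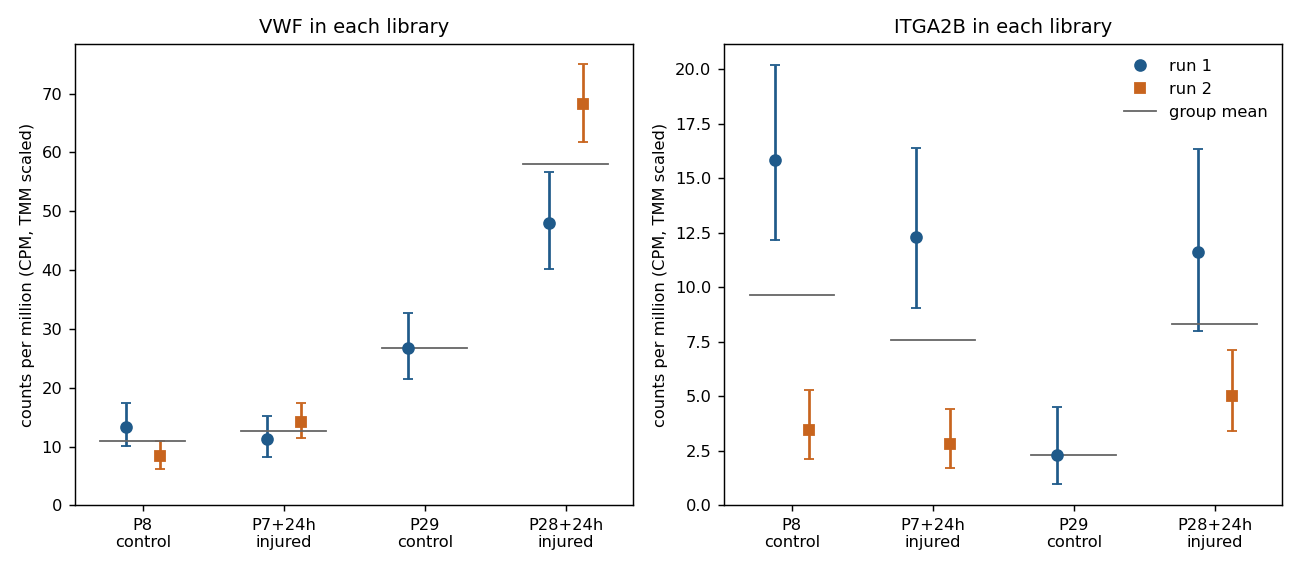
VWF (left) and ITGA2B (right) in each of the 7 libraries, in CPM after TMM scaling, by group. Points are libraries, coloured by sequencing run, bars are 95% Poisson intervals of the count, and grey lines are group means; the 3 day 29 libraries had more VWF than the 4 day 8 libraries, with the P28+24h injured libraries highest, whereas ITGA2B was higher in run 1 than in run 2 in each group that has both runs.

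The fold changes of both genes were estimated by the quasi-likelihood method of edgeR, fitted once to the 7 libraries in their 4 groups over all 13534 genes that passed a filter on low counts, with Benjamini-Hochberg adjustment over all of them. Calls were limited to genes with an adjusted p below 0.05 that differed 2-fold or more. Because the P29 control is a single library, the comparisons that use it take their spread from the other groups. A second fit added the run as a block. In it the P29 control is compared with run 1 libraries directly and with run 2 libraries through the run difference measured in the other 3 groups. Both genes passed the filter.

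Injury at P7 left VWF without a detectable difference at this depth and number of libraries. Its log2 fold change was 0.24 ± 0.38 (SE, adjusted p = 1), and the runs went opposite ways. In run 1 the injured library held 0.845 times the control level (95% interval 0.553 to 1.28), and in run 2 it held 1.69 times the control level (1.19 to 2.42). No gene was called in this comparison (0% of genes), with 69 genes at an unadjusted p under 0.05, 4 calls by edgeR's exact test and 2 by DESeq2. With the run as a block 0.0148% of genes were called and the VWF value was 0.27 ± 0.29 (SE, adjusted p = 1).

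After injury at P28, VWF was 2.18-fold higher than in the control in the fit without a block, a log2 fold change of 1.12 ± 0.47 (SE, unadjusted p = 0.0544, adjusted p = 1), and it was not called. Within run 1 the injured cord held 1.80 times the control level (1.37 to 2.37). The run 2 injured cord held 2.55 times the level of the run 1 control (2.04 to 3.23), a ratio that crosses runs. The difference exceeded counting error in both libraries and did not pass after adjustment over all genes tested. No gene was called in this comparison either (0% of genes), with 157 genes at an unadjusted p under 0.05, 3 calls by the exact test and 0 by DESeq2. With the run as a block 0.754% of genes were called, VWF was not among them, and its value was 1.06 ± 0.34 (SE, unadjusted p = 0.0101, adjusted p = 0.163). An exact permutation test over the log2 CPM values of these libraries gave p = 0.333 (two-sided) for VWF and p = 0.667 for ITGA2B. The smallest p that 2 libraries against 1 allow is 0.333, so this test could not have called either gene. The study lists VWF and ITGA2B among the genes that it found higher at this age in these libraries, so their direction here is not independent of that choice.

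Between the uninjured ages, VWF was 2.46-fold higher at P29 than at P8, a log2 difference of 1.30 ± 0.44 (SE, adjusted p = 0.202) that was not called, where 1.79% of genes were called. With the run as a block VWF was called, at 1.40 ± 0.35 (SE, adjusted p = 0.0131), in a fit that called 21.4% of genes. The P29 control held 2.00 times the level of the run 1 P8 control (1.41 to 2.85) and 3.18 times that of run 2 (2.24 to 4.57). The injured cords of both ages kept this order, with 4.25 times more VWF at P28+24h than at P7+24h in run 1 (3.00 to 6.14) and 4.81 times more in run 2 (3.84 to 6.07). The difference between the responses at P28 and P7, tested as a contrast in the same fit, was 0.88 ± 0.59 (SE, adjusted p = 1) on the log2 scale without a block, where no gene was called (0% of genes, 59 at an unadjusted p under 0.05, 0 by DESeq2). With the block it was 0.78 ± 0.44 (SE, adjusted p = 0.637), where 0.0369% of genes were called. The larger change in the older cord was thus called in neither fit.

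ITGA2B was a low gene whose level was higher in run 1 than in run 2 within each group that has both runs. The P8 controls held 64 and 21 counts in runs 1 and 2, or 15.8 CPM (12.2 to 20.2) and 3.46 CPM (2.14 to 5.28). The P7+24h injured cords held 47 and 19 counts, or 12.3 CPM (9.06 to 16.4) and 2.84 CPM (1.71 to 4.43). In both of these groups the run 1 library stood well above the run 2 library. The P29 control, of run 1, held 8 counts, or 2.30 CPM (0.991 to 4.52), the lowest level of the 7 libraries. A P29 control below both P8 controls was found for 38.8% of genes. The P28+24h injured cords held 33 and 31 counts, or 11.6 CPM (8.01 to 16.3) and 5.02 CPM (3.41 to 7.12), and both lay above the control. The group means were 9.64 ± 8.74 CPM (SD, n = 2) at P8, 7.58 ± 6.71 CPM (SD, n = 2) at P7+24h and 8.33 ± 4.68 CPM (SD, n = 2) at P28+24h, and these 3 groups overlapped and did not differ beyond their spread.

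Run 1 exceeded run 2 for ITGA2B by 4.58 times in the P8 controls (95% interval 2.76 to 7.89), by 4.34 times in the P7+24h injured cords (2.50 to 7.84) and by 2.32 times in the P28+24h injured cords (1.38 to 3.91). In the fit with the run as a term, run 2 was lower by 3.56-fold, a log2 difference of -1.83 ± 0.27 (SE, adjusted p = 4.31e-04), and only 0.842% of genes had a lower value. The run term was called for 18.4% of all genes, 7.08% lower and 11.3% higher in run 2. A level lower in run 2 in all 3 groups was found for 34.8% of genes. VWF did not share this difference, with a run term of 0.14 ± 0.22 (SE, adjusted p = 0.627), and its run 2 library was the lower one at P8 and the higher one in the injured groups. The dispersion of ITGA2B, which is the spread between libraries beyond counting error in the edgeR fit, was 0.423 without the run in the fit and 0.0268 with it, and that of VWF was 0.0972 and 0.0270.

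**Figure D2:**
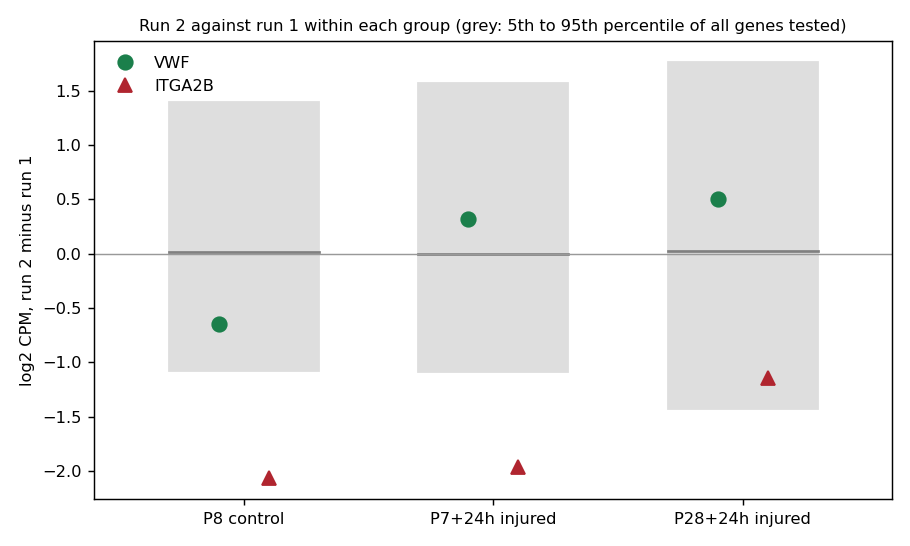
Log2 CPM of run 2 minus run 1 within each group that has both runs, for VWF (circles) and ITGA2B (triangles). The grey boxes span the 5th to the 95th percentile of the 13534 genes tested and the grey lines are their medians; ITGA2B lay below the box in the P8 and P7+24h groups, at -2.07 and -1.97, and inside it in the P28+24h group at -1.15, and VWF lay inside it in all 3 groups.

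The injury at P7 did not move ITGA2B detectably. The log2 fold change was -0.36 ± 0.97 (SE, adjusted p = 1) without a block and -0.34 ± 0.33 (SE, adjusted p = 1) with it. The injured cord held 0.779 times the control level in run 1 (0.523 to 1.15) and 0.821 times in run 2 (0.418 to 1.60), both slightly under 1 with intervals that include it.

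After injury at P28, ITGA2B was 3.52-fold higher than in the control without a block, a log2 fold change of 1.81 ± 1.40 (SE, unadjusted p = 0.244, adjusted p = 1). Within run 1 the injured cord held 5.07 times the control level (2.30 to 12.7), a change exceeded by 0.746% of genes in that pair of libraries. The run 2 injured cord held 2.19 times the level of the run 1 control (0.983 to 5.51), across a run difference in the opposite direction. Both injured libraries were at least 2-fold above the control on the log2 scale used, as were those of 1.9% of genes. With the run as a block the log2 fold change was 2.63 ± 0.55 (SE, adjusted p = 0.0598), just over the threshold, and ITGA2B was not called. A likelihood ratio test on the same blocked design, which called 3.64% of genes, gave an adjusted p of 4.62e-04 for the same fold change and called it, so the call depended on the test. VWF was not called there by that test either (adjusted p = 0.0623). All of these values rest on the 8 counts of the single P29 control.

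Between the uninjured ages, ITGA2B went the other way from VWF. Its log2 difference at P29 against P8 was -2.04 ± 1.40 (SE, adjusted p = 0.475) without a block, and it was called lower with the block at -2.64 ± 0.54 (SE, adjusted p = 0.00426). In this comparison the fit with the block called 21.4% of genes, with 1203 of the 13534 genes tested called lower. Against the P8 control of its own run the P29 control was 6.89-fold lower (3.295 to 16.6), and against that of run 2 it was 1.51-fold lower with an interval that includes no difference (0.640 to 3.93). Among the injured cords the ages did not differ beyond counting error, and the P28+24h cord held 0.944 times the P7+24h level in run 1 (0.586 to 1.51) and 1.77 times in run 2 (0.968 to 3.31). The difference between the responses at P28 and P7 was 2.17 ± 1.70 (SE, adjusted p = 1) on the log2 scale without a block and 2.97 ± 0.65 (SE, adjusted p = 0.186) with it, called in neither fit. The likelihood ratio test with the block called the difference in response of ITGA2B (adjusted p = 0.00303) among 1.47% of genes, and it called both VWF and ITGA2B at P29 against P8 among 24% of genes. The comparisons of P28+24h with P29 and of P29 with P8 share the single P29 control library, so its low count enters both with opposite sign.

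**Figure D3:**
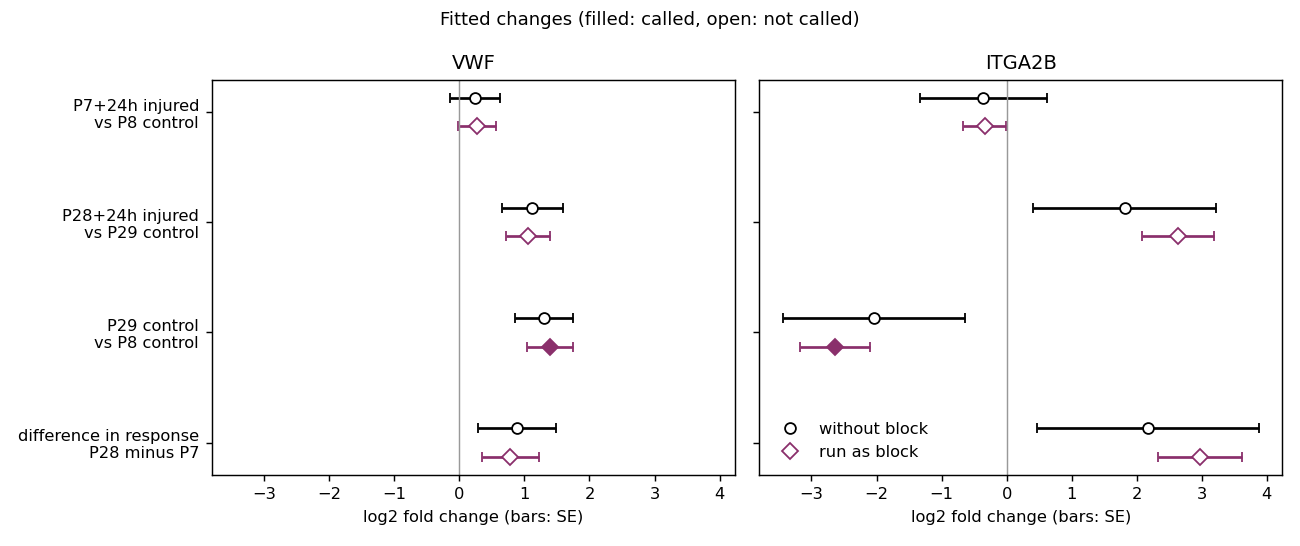
Log2 fold changes of VWF (left) and ITGA2B (right) in the 4 comparisons, from edgeR's quasi-likelihood fit without a block (circles) and with the run as a block (diamonds); bars are standard errors and filled symbols are calls. The calls were those of P29 control against P8 control with the block, where VWF was higher (1.40) and ITGA2B lower (-2.64), and the block narrowed the bars of ITGA2B more than those of VWF.

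None of the direct partners of these proteins, integrin beta 3, the subunits of the platelet glycoprotein Ib-IX-V complex that binds VWF, the VWF-cleaving protease ADAMTS13, factor VIII or the Weibel-Palade protein P-selectin, is paired with an identifier in the tables used here, and none has a value. Of 28 platelet and megakaryocyte symbols 3 had an identifier, and all 3 passed the filter. Besides ITGA2B these were THBS1, an adhesive protein of the alpha granule, and F13A1, the catalytic subunit of the factor that crosslinks fibrin. THBS1 had 34 and 24 counts at P8, 32 and 51 at P7+24h, 11 at P29 and 16 and 88 at P28+24h. F13A1 had 25 and 0, 14 and 39, 3, and 10 and 47 counts in the same order. With the block their log2 fold changes at P28+24h were 1.73 ± 0.74 (SE, adjusted p = 0.276) and 2.93 ± 1.63 (SE, adjusted p = 0.408), so none of the 3 was called there. The median of the 3, 2.63, was the value of ITGA2B itself. Most genes with an identifier at hand were ones the study called on these libraries, so the direction of this and the later lists at P28 is not independent evidence. THBS1 and F13A1 are also made outside platelets, THBS1 by vascular cells and F13A1 by macrophages, and F13A1 rested on a control at the floor of 3 counts.

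Glycoprotein VI, the platelet receptor for collagen, has no identifier of its own in these tables, but 3 genes are described there as similar to it. ENSMODG00000003816 had 2 and 3 counts at P8, 13 and 29 at P7+24h, 19 at P29 and 51 and 121 at P28+24h. It was called higher at P29 than at P8 without a block (adjusted p = 0.0408), as 1.71% of genes were. After injury its blocked log2 fold change was 2.93 at P7+24h, the highest of the 3 genes, and 1.68 at P28+24h. Neither was called, and the P7+24h value rests on the 2 and 3 counts of the P8 controls. ENSMODG00000003960 had 69.5 and 28.3 CPM at P8, 94.2 and 31.4 at P7+24h, 70.02 at P29 and 196 and 35.1 at P28+24h. It was above its control in run 1 after injury at P28 and below the same control in run 2, with a blocked log2 fold change of 1.20 ± 0.32 (SE, adjusted p = 0.106). The third, ENSMODG00000006799, had a blocked value of 2.04 ± 0.66 (SE, adjusted p = 0.164) there. Genes of this kind belong to a family of similar immunoglobulin-domain receptors, some of them on leukocytes, and reads of near-identical copies may have been counted on either copy.

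The endothelial list had 3 of 32 symbols with an identifier, VWF, KDR and S1PR1. KDR is the main receptor for vascular endothelial growth factor on endothelium, and S1PR1 is the receptor by which endothelial cells sense sphingosine 1-phosphate. KDR had 36.3 and 35.5 CPM at P8, 26.8 and 32.6 at P7+24h, 137.2 at P29 and 78.3 and 91.8 at P28+24h. Like VWF it was higher in every day 29 library than in every day 8 library, as 19.9% of genes were. Unlike VWF it lay below the control in both P28+24h libraries, as 22.5% of genes did. KDR was called higher at P29 than at P8 without a block (1.93 ± 0.31, SE, adjusted p = 0.0454), as 1.71% of genes were. It was also called higher with the block (2.02 ± 0.21, SE, adjusted p = 5.18e-05), as 12.5% of genes were. At P28+24h its blocked value was -0.77 ± 0.21 (SE, adjusted p = 0.109) and that of S1PR1 was -1.19 ± 0.28 (SE, adjusted p = 0.0738), beside 1.06 for VWF. Of these 3 genes only VWF thus had a positive value after injury at P28, and none was called. The summed level of the 3 was between 81.8 and 108 CPM at day 8, 211 at P29 and 143 and 200.5 at P28+24h. Of the mural cell markers, which mark pericytes and vascular smooth muscle, NOTCH3 was called higher at P29 than at P8 with the block, as 12.5% of all genes were (1.31 ± 0.30, SE, adjusted p = 0.0082), and TAGLN and DES were not.

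Of 32 coagulation and fibrinolysis symbols 3 had an identifier, F10, the protease of the prothrombinase complex, F13A1 and ANXA2, a cell surface receptor for plasminogen. All 3 had positive blocked values at P28+24h, between 0.36 and 2.93, and none was called. F10 had 11.1 and 2.47 CPM at P8, 14.4 and 4.18 at P7+24h, 10.9 at P29 and 19.04 and 19.3 at P28+24h, and its blocked value at P28+24h was 1.46 ± 0.57 (SE, adjusted p = 0.242). Of the integrins, ITGA4, which pairs with beta 1 or beta 7 on leukocytes, had 0 counts in 3 of the 4 run 1 libraries and 8 in the P29 control, and was called higher at P29 than at P8 with the block (adjusted p = 0.00942). ITGB2, the beta chain of the leukocyte integrins, had 3.21 and 5.27 CPM at P8, 6.29 and 16.3 at P7+24h, 6.60 at P29 and 13.05 and 36.9 at P28+24h. In this comparison of P29 with P8 the fit with the block called 12.5% of all genes higher. ITGB2 and ITGB8 were called higher there with the block, at 1.43 ± 0.45 (SE, adjusted p = 0.0342) and 3.13 ± 0.22 (SE, adjusted p = 3.66e-06). Neither gene was called after injury, and ITGA2B was the only 1 of these 4 integrins with a run 2 level below its run 1 level in every group that has both runs.

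VWF also belongs to a category of blood-related genes that the study drew from the genes it found changed at P28 in these libraries. Of its members 23 had an identifier, and the direction of such a list at P28 is not independent evidence. At P28+24h with the block 6 of the 23 were called higher, where 0.584% of all genes were, and none lower, and 22 had positive values, with a median of 1.47 against 0.00 over all genes tested. The called members were HBZ, an embryonic alpha-type globin, GATA1, the transcription factor of erythroid cells and megakaryocytes, CA1, the carbonic anhydrase of red cells, BLVRB, which reduces biliverdin in red cells, HPN, a membrane serine protease, and a haptoglobin-related gene. GATA1 had 117 and 23 counts at P8, 96 and 32 at P7+24h, 44 at P29 and 141 and 53 at P28+24h, and its blocked value was 2.00 ± 0.31 (SE, adjusted p = 0.0268). That of HBZ was 2.48 ± 0.35 (SE, adjusted p = 0.0229). VWF was the second lowest of the positive values, above CDAN1 at 1.05. NBEAL2, which megakaryocytes need to form alpha granules and which is named here for that role after its values were seen, had 38.3 and 19.1 CPM at P8, 36.2 and 20.3 at P7+24h, 23.8 at P29 and 49.4 and 29.8 at P28+24h, and a blocked value of 1.12 ± 0.25 (SE, adjusted p = 0.0686). At P7+24h none of the 23 was called, 13 had positive values, and the median was 0.03. Without a block none of the 23 was called at either age.

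**Figure D4:**
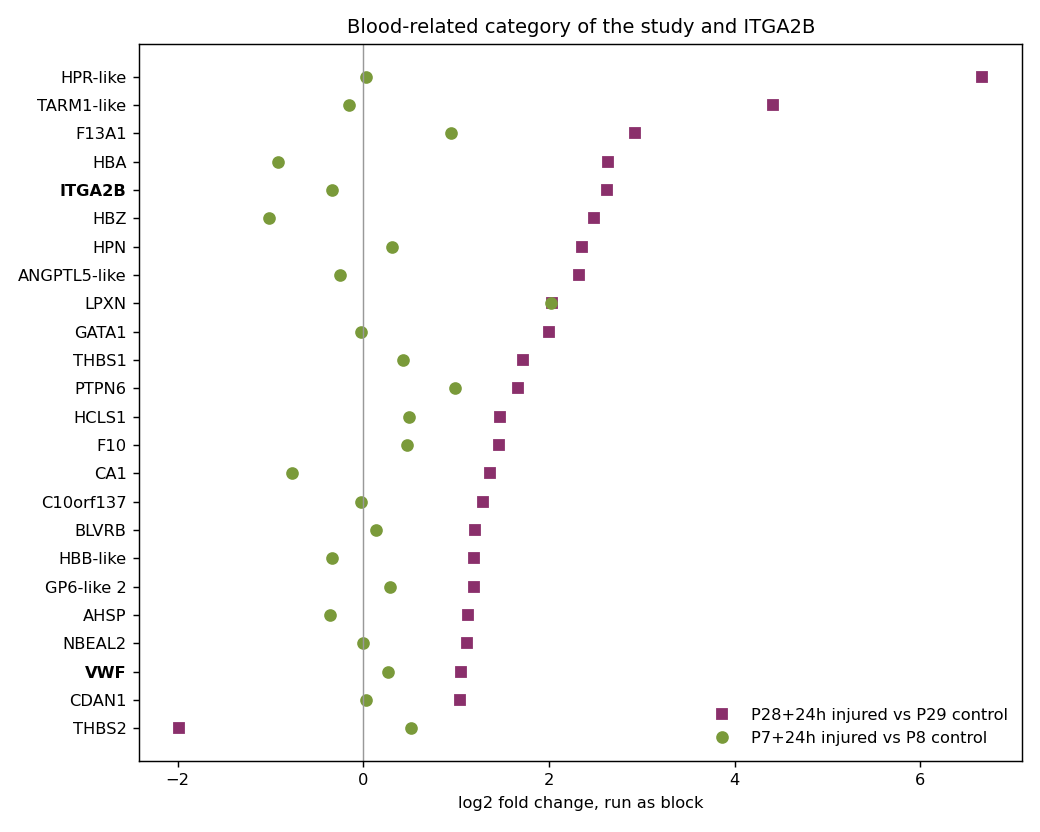
Log2 fold changes with the run as a block for the 23 genes of the study's blood-related category that have an identifier, and for ITGA2B, in P28+24h injured against P29 control (squares) and P7+24h injured against P8 control (circles). Names ending in -like are genes described by their similarity to the named gene; 22 of the 23 squares lie to the right of 0 (THBS2 does not), VWF among the lowest of them at 1.06 and ITGA2B among the higher values at 2.63, whereas the circles of the 23 have a median of 0.03.

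Red cell genes were higher in run 1 than in run 2, as ITGA2B was within the groups that have both runs. The 5 erythroid markers at hand (ALAS2, GATA1, AHSP, HBZ and CA1, of 24 symbols) summed to 404 and 79.96 CPM at P8 in runs 1 and 2, 262 and 70.6 at P7+24h, 278 at P29 and 626 and 183 at P28+24h. Each run 1 library was thus above each run 2 library, and at P28+24h the run 1 library was above its control. With the block 3 of the 5 were called higher at P28+24h (median 1.37), where 0.584% of all genes were, and at P7+24h, where 0.0148% of all genes were called, none was called and all had values under 0 (median -0.36). The 10 leukocyte markers of 23 symbols summed to 28.9 and 16.1 CPM at P8, 60.6 and 62.7 at P7+24h, 51.1 at P29 and 175 and 147 at P28+24h, with 1 of the 10 at 0 in each P8 control. The 10 skeletal muscle markers of 22 symbols summed to between 13.3 and 28.6 CPM in the day 8 libraries, to 26.1 at P29 and to 206 and 79.3 at P28+24h, with 2 of the 10, MYL1 and MYLPF, called higher at P28+24h with the block (0.584% of all genes). The 4 spinal cord markers at hand, of 23 symbols, summed to 85148 CPM at P29 and to 45552 and 60071 at P28+24h. With the block all 4 had values under 0 at P28+24h, between -1.23 and -0.29. OLIG2 was called lower (-1.05 ± 0.19, SE, adjusted p = 0.0389), as were 23 of the 13534 genes tested in that fit. The values of GFAP and MBP, a myelin protein, were -0.29 (adjusted p = 0.622) and -1.12 (adjusted p = 0.196). Levels of the erythroid, leukocyte and muscle lists were highest in the run 1 P28+24h library. There ITGA2B stood 5.07 times above its control, but its level of 11.6 CPM was not its highest. It was higher in the run 1 libraries of the P8 control (15.8 CPM) and P7+24h (12.3 CPM). VWF was highest in the other P28+24h library. Most genes with an identifier at hand were ones the study called on these libraries. The direction and calls of these lists at P28 are therefore not independent evidence. The part of blood, leukocyte and muscle RNA in the values of VWF and ITGA2B was not tested.

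**Figure D5:**
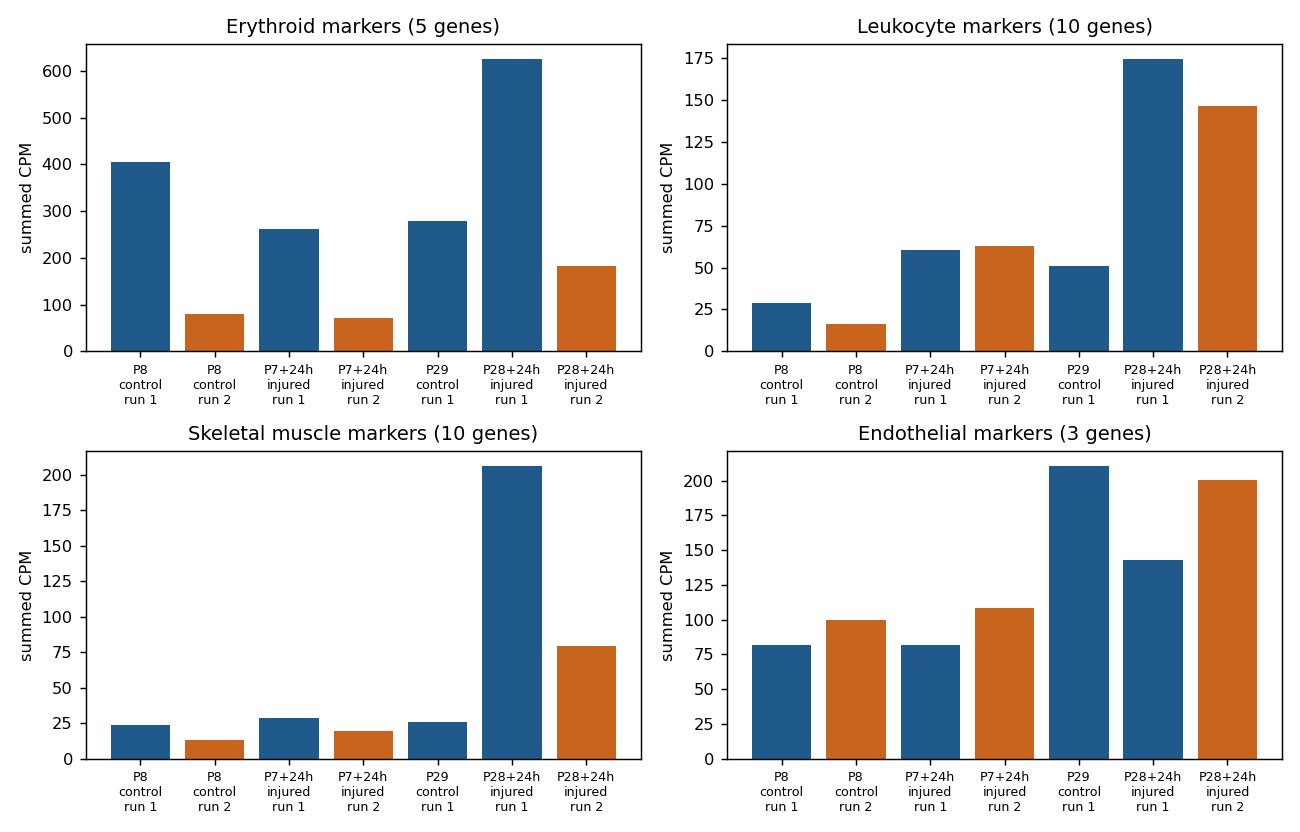
Summed CPM of the erythroid, leukocyte, skeletal muscle and endothelial markers at hand in each library, blue for run 1 and orange for run 2, each panel with its own axis from 0. The erythroid sum was higher in every run 1 library (262 to 626) than in every run 2 library (70.6 to 183), the leukocyte and muscle sums were highest in the P28+24h injured libraries, and the endothelial sum was highest in the P29 control (211).

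The genes whose log2 CPM ran most closely with VWF over the 7 libraries included HCLS1, a cytoskeletal adaptor of blood cells (Pearson r = 0.982), and ENSMODG00000019165, which had the highest r at 0.996. Those closest to ITGA2B included OGT, the enzyme that adds N-acetylglucosamine to intracellular proteins (r = 0.983), a gene similar to the cullins CUL7 and CUL9 (r = 0.986) and a gene similar to the axonemal dynein DNAH7 (r = 0.987). These correlations describe 7 points that share runs and groups. After the mean of each run was subtracted, the r of all 10 genes stayed between 0.979 and 0.996, but other genes then came closer, so that 1 of the 5 closest genes stayed among the closest 5 for VWF (ENSMODG00000019165) and 1 for ITGA2B (OGT).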

How the data were processed

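The authors sequenced single ends of 100 bp, trimmed them, aligned them to the opossum genome of Ensembl release 69 (Bowtie2), assigned them to genes (HTSeq, union mode) and deposited the raw counts of 21314 genes, 1 column per library; use of strand and the coordinates' build are not given in the sources used here. From these deposited counts, TMM factors were computed, filterByExpr with a minimum count of 10 kept 13534 genes, and these were fitted in edgeR 4.0.16 (R 4.3.3, limma 3.58.1) with 3 residual degrees of freedom (2 with the block), and P28 minus P7 was a contrast of that fit. Single-library log2 values used a prior count of 2. Alternatives were edgeR's exact test, which the study names, DESeq2 1.42.0, a likelihood ratio test, other scalings and filters, the block, and leaving out each library. The exact test here called fewer genes after injury at each age than the study reports, and the reason was not tested.

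The replicate number is the sequencing run in the labels and pairs the samples. The change from run 1 to run 2 correlated across 13534 genes, which are not independent replicates, at 0.80, 0.70 and 0.74 between the 3 groups with both runs.

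VWF, ITGA2B and the gene lists were chosen with earlier results of these data known. Gene names came from identifiers in the study's supplementary tables, most of them of genes it called on these libraries. In every list except the study's category and the genes similar to GP6, under 80% of the symbols were matched. Such lists are described by the counts, medians, ranges and summed levels of their matched genes, without a test of the list. Values are named for VWF, ITGA2B, their partners, list genes called in a comparison or high in level, and the 5 genes most like each by Pearson r. No coordinates are given, since the reference table used here is of another assembly. A further marker is not reported here.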

Additional observations from a re-analysis of the deposited data

Results flagged for a closer look

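For ITGA2B the log2 change after injury had opposite signs at the 2 ages in every library. Both P7+24h injured libraries lay below the P8 control of their run, by -0.35 and -0.25, changes within counting error (ratios of 0.779, 0.523 to 1.15, and 0.821, 0.418 to 1.60), and both P28+24h injured libraries lay above the P29 control, by 2.15 and 1.00. This pattern of signs was found for 6.05% of the genes tested. The difference in response was 2.17 on the log2 scale and did not pass edgeR's quasi-likelihood test without a block (adjusted p = 1) or with it (2.97, adjusted p = 0.186), and passed a likelihood ratio test with the block (adjusted p = 0.00303), where 1.47% of genes were called. Without P8 control replicate 1 the P7 change was 1.09 and the difference 0.72 in the fit without a block. Both P28 values use the same P29 control library with 8 counts, and the run 2 value compares libraries of different runs.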

How the results depend on the processing

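With RLE factors, library size only, either other low-count filter, no fold threshold, DESeq2 or the exact test (which gave no value for the difference in response), VWF and ITGA2B kept their direction in all comparisons fitted and neither was called. The replicate block moved VWF and ITGA2B past the threshold at P29 against P8 (1.40 and -2.64) and changed no other call of these genes; the likelihood ratio test with the block called the same 2 (1.38 and -2.64) and also ITGA2B at P28+24h (2.63) and in the difference in response (2.97).

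Leaving out 1 library without the block changed no call of either gene. The P7 change of VWF ranged from -0.06 to 0.60 (with the block -0.30 to 0.80), turning negative without P8 control replicate 2, and that of ITGA2B from -1.73 to 1.09 (with the block -0.59 to 0.0019), turning positive without P8 control replicate 1 and, without the block, without P7+24h replicate 2. With the block the P28 change of VWF ranged from 0.78 to 1.49 and was called only without P28+24h replicate 1 (adjusted p = 5.14e-05), as was its difference in response (1.18, range 0.082 to 1.19). The P29 against P8 difference of VWF ranged from 0.997 to 2.10. It was not called without P8 control replicate 2, where its value of 0.997 fell just short of the 2-fold limit. For ITGA2B the P28 change was called in all 6 such fits (2.27 to 3.27, without the block 1.11 to 2.27), P29 against P8 in all 6 (-2.77 to -2.23, without the block -2.77 to -0.59), and the difference in response in 4 of 6 (2.54 to 3.62, without the block 0.72 to 3.55). These 6 fits have 1 residual degree of freedom. Each called more genes at P28+24h and in the difference in response than the fit with the block on all 7 libraries did. A call there is thus not particular to VWF or ITGA2B, and the cause of the calls was not tested. The P29 control could be left out only for the P7 comparison.

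Genes called in all numbered, in the order without block, exact test, DESeq2, likelihood ratio test with block and quasi-likelihood test with block, 0, 4, 2, 36 and 2 at P7, 0, 3, 0, 493 and 102 at P28, and 242, 943, 862, 3242 and 2893 for P29 against P8, with 138 by library size only. For the difference in response, without the exact test, they numbered 0, 0, 199 and 5. Leaving out 1 library gave 0 to 51, 0 to 960, 0 to 3468 and 0 to 719 calls over both fits. Of the 5 genes most like each of VWF and ITGA2B, 1 was still among the closest 5 after subtracting run means, while the r of all 10 stayed between 0.979 and 0.996.

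The single P29 control with 8 counts of ITGA2B and groups of 2 libraries limit what can be called. A fold computed against that control takes in the run difference for the run 2 injured cord, and the fit with the block removes it only as far as it is the same in all groups.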
